A study of Mus musculus with 16 samples.

Results

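Kupffer cells are the resident macrophages of the liver, and 35 genes that mark them or other macrophages and myeloid cells were followed in liver RNA-seq of mice on 2 diets with and without knockdown (KD) of *Fgfr4*, the hepatocyte receptor for the gut hormone FGF15. The members were taken by symbol from the deposited table of 52143 genes, and all 35 were found. They were described in 5 groups by role, with 7 markers of resident Kupffer cells, 12 general macrophage genes, 7 myeloid and pan-leukocyte genes, 4 markers of recruited monocytes and dendritic cells, and 5 markers of lipid-associated macrophages.

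The mice were male C57BL6/J, 6 weeks old at the start, and were kept for 12 weeks on chow or on a high-fat diet (HFD) with 60% fat. Every 2 weeks they were injected under the skin with saline or with an siRNA that targets *Fgfr4*, at 3 mg/kg. The groups of 4 mice are named Chow (chow, saline), Chow/FGFR4 KD (chow, siRNA), HFD (HFD, saline) and HFD/FGFR4 KD (HFD, siRNA), and HFD 2 stands for the library of the mouse labelled 2 in its group. It was coupled to GalNAc, which hepatocytes bind through their asialoglycoprotein receptor, so that hepatocytes were its intended target and not the macrophages described here. No group received a control siRNA, and a response to an injected siRNA as such cannot be told apart from the loss of FGFR4.

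Kupffer cells line the sinusoids and clear particles, aged red cells and complement-coated microbes from portal blood. In a fatty liver some of them are known to be lost and replaced by monocytes from the blood, which enter through the chemokine receptor CCR2 and can take on a lipid-associated program with *Trem2*, *Gpnmb* and *Spp1*. Whole liver was sequenced here, in which hepatocytes supply most of the RNA. In such bulk samples fewer cells of a type and less RNA per cell cannot be told apart.

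The libraries held between 3445949 and 5976449 counts. A floor of 3 counts was worth 0.502 to 0.871 CPM, the unit used throughout, which scales counts to a common library size with TMM factors. *Fgfr4* lay at 2.43 to 6.17 CPM in the 8 KD libraries and at 21.8 to 36.3 CPM in the 8 saline libraries, so the siRNA target followed the labels. Gm42418, which shares sequence with ribosomal RNA, took 13.44% to 22.7% of the counts in Chow and 11.07% to 15.63% in HFD. Leaving it and *Lars2* out before scaling gave the same number of called members in HFD against Chow, 20, where 13.1% of all genes were called higher. After removal of genes below 1 CPM in over 4 libraries, 11324 genes and 26 of the 35 members could be tested. A gene was called with limma-voom at p under 0.05 and Benjamini-Hochberg adjusted p under 0.25 over all genes tested, and log2 changes are given with their standard error (SE). The 9 members left out were *Cd14*, *Ccl24*, *Itgam*, *Itgax*, *Ccr2*, *Cx3cr1*, *Trem2*, *Gpnmb* and *Lgals3*. They include all 4 markers of recruited cells and 3 of the 5 lipid-associated markers, so these groups are described mainly by their values.

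In Chow livers the members spanned a wide range when levels were set per kilobase of transcript. *Spp1* was highest at 16.4 ± 2.44 CPM per kilobase (mean ± SD, n = 4), followed by *Cd9* at 10.4 ± 2.38 and *Lyz2* at 9.51 ± 1.21. *C1qa*, *Clec4f*, *C1qb*, *C1qc*, *Cd5l* and *Mpeg1* came next, between 8.41 and 7.11 CPM per kilobase, and neighbours in that stretch differed by less than their spread. *Clec4f*, the C-type lectin found on Kupffer cells, was therefore among the best expressed members, and the labelled tissue held its resident macrophages. *Ccr2* had 0.158 ± 0.0439 CPM per kilobase, *Trem2* 0.157 ± 0.125 and *Gpnmb* 0.0165 ± 0.0331, the lowest of all. *Spp1* and *Cd9* are not restricted to macrophages, since *Spp1* also marks bile duct cells and *Cd9* is a widely expressed tetraspanin.

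In saline-treated mice, most resident Kupffer, general macrophage and myeloid genes were higher on HFD than on chow. Neither of the 2 lipid-associated markers that passed the filter, *Spp1* and *Cd9*, was called. Of the 26 members tested, 20 were called higher and 0 lower in HFD against Chow, where 13.3% of all genes tested were called higher. At the stricter adjusted p under 0.05, 15 members remained, against 4.55% of all genes called higher. In 15 members every HFD library lay above every Chow library, which held for 8.33% of all genes. The median log2 change of the tested members was 0.90, against 0.01 over all genes, and 25 of 26 were above 0, against 50.9% of all genes. The calls covered 5 of 7 resident Kupffer markers, 8 of 10 tested macrophage genes, 7 of 7 myeloid genes and 0 of 2 tested lipid-associated markers. The filter left out *Lgals3*, *Gpnmb* and *Trem2*, which were low in Chow, so the last count does not describe the lipid-associated group. In a fit without the filter, given further on, *Lgals3* and *Gpnmb* were called higher and *Trem2* was not. Scaled by library totals in place of TMM factors, the median of all genes moved to 0.29, all calls changed from 1506 higher and 1433 lower to 3967 higher and 339 lower, and 23 members were called higher with a median of 1.16, against 35% of all genes. Adipocyte, stellate and erythroid marker genes were also higher on HFD, and their values are given further on.

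Summed over all 35 members, Chow libraries 1 to 4 held 198, 207, 191 and 197 CPM, and HFD libraries held 354, 432, 421 and 300 CPM. The groups did not overlap, and the 4 Chow mice lay close together. The 7 resident Kupffer markers summed to between 46.7 and 53.5 CPM in Chow and to 85, 154, 73.9 and 86.8 CPM in HFD 1 to 4. HFD 2 stood far above the other HFD mice in this sum. The 12 macrophage genes summed to between 82.1 and 103 CPM in Chow and between 142 and 215 CPM in HFD, and the 7 myeloid genes to between 15.6 and 20.6 CPM and between 34.1 and 45.3 CPM. A sum follows its best expressed genes, so the single members are given next.

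**Figure D1:**
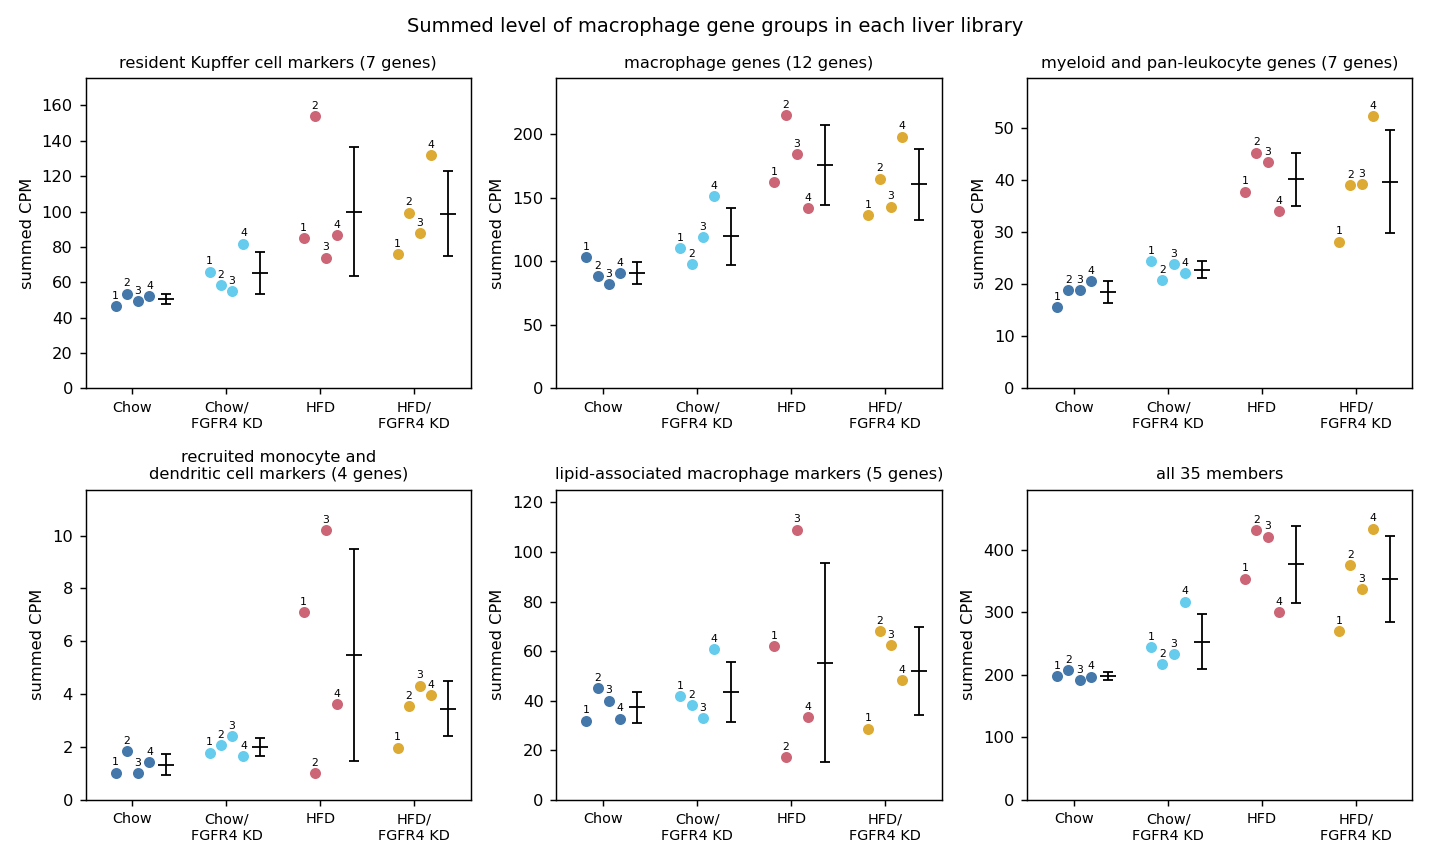
Summed CPM of each member group and of all 35 members in the 16 liver libraries; points are mice with their label number, bars the mean ± SD of the 4 mice of a group. All HFD libraries lie above all Chow libraries for the resident Kupffer, macrophage and myeloid groups, whereas HFD 2 lies low and HFD 3 high for the recruited and lipid-associated groups.

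*Clec4f* was measured at 17.6, 20.3, 21.1 and 23 CPM in Chow 1 to 4 and at 32.3, 57.9, 26.8 and 36.3 CPM in HFD 1 to 4. No HFD library was as low as a Chow library, and the log2 change was 0.84 (SE 0.225, adjusted p 0.0269). *Cd5l* encodes AIM, a protein secreted by macrophages that binds lipids and supports their survival. It lay at 14.8, 17.5, 16.2 and 15.4 CPM in Chow and at 29.4, 51.3, 29 and 26.5 CPM in HFD, again without overlap, with a log2 change of 1.04 (SE 0.224, adjusted p 0.00895). *Vsig4*, the complement receptor with which Kupffer cells catch C3b-coated bacteria, was at 3.90, 2.87, 3.85 and 3.08 CPM in Chow and at 7.64, 13.2, 6.13 and 7.67 CPM in HFD. Its log2 change was 1.24 (SE 0.324, adjusted p 0.0242), with all HFD mice above all Chow mice.

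The scavenger receptors were less even. *Marco*, which binds bacteria and particles, rose by 1.56 on the log2 scale (SE 0.716, adjusted p 0.179), from 0.783 to 1.23 CPM in Chow to 2.31, 8.34, 1.99 and 2.62 CPM in HFD. Its counts were 3 to 6 in Chow, and the call was lost without Chow 1, 2, 3 or 4 or without HFD 2 or 4. *Cd163*, the receptor for haptoglobin-bound haemoglobin, rose by 0.71 (SE 0.271, adjusted p 0.108) with overlapping groups, and the call was lost without Chow 3 (0.47, adjusted p 0.281) or without HFD 2 (0.56, unadjusted p 0.0549). *Timd4*, a receptor for phosphatidylserine that marks embryonically derived Kupffer cells, was not called (0.68, SE 0.377, adjusted p 0.270). It was measured at 1.23, 1.3, 1.83 and 0.710 CPM in Chow and at 2.16, 2.94, 1.53 and 1.82 CPM in HFD, and the groups overlapped. *Folr2*, a folate receptor of resident macrophages, gave 0.15 (SE 0.430, adjusted p 0.854), with HFD 2 at 6.70 CPM and the other HFD mice at 1.21 to 2.02 CPM, within the Chow range of 1.44 to 2.87 CPM or below it. Of the 31-base words in *Folr2* transcripts, 56.9% also occur in the predicted gene Gm10602, so its counts are uncertain.

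Among the general macrophage genes, *Csf1r* had the smallest p of all members. It encodes the receptor for CSF1 and IL34, on which tissue macrophages depend. It was measured at 10.7, 9.39, 10.5 and 13.7 CPM in Chow and at 23.2, 28.4, 20.7 and 21.8 CPM in HFD, a log2 change of 1.08 (SE 0.164, adjusted p 0.00127). The HFD libraries were well separated from the Chow libraries. *Csf1r* shares 14.9% of its 31-base words with other genes, *Hmgxb3* first among them, so part of its reads could be split differently. *Cd68*, a glycoprotein of macrophage lysosomes, had the largest called change, 1.93 (SE 0.372, adjusted p 0.00488). It lay at 1.64, 0.783, 1.01 and 1.18 CPM in Chow, from 3 to 8 counts, and at 5.04, 5.23, 5.06 and 3.23 CPM in HFD, from 16 to 35 counts. *Adgre1*, which encodes F4/80, the classical surface antigen of mouse macrophages, rose by 1.44 (SE 0.364, adjusted p 0.0201), from 1.64, 1.83, 3.45 and 3.08 CPM to 6.05, 11.1, 5.67 and 5.25 CPM.

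*C1qa*, *C1qb* and *C1qc* encode the 3 chains of C1q, which opens the classical complement pathway, and lie side by side on chromosome 4 (GRCm38). *C1qa* runs from 136895917 to 136898803, *C1qc* from 136889804 to 136893065 and *C1qb* from 136880129 to 136886187, all on the minus strand. *C1qa* was at 8.41, 8.87, 8.72 and 9.00 CPM in Chow and at 19.2, 23.9, 16.9 and 13.1 CPM in HFD, a log2 change of 1.03 (SE 0.215, adjusted p 0.00763). The 4 Chow values were nearly alike, and all HFD values were higher. *C1qc* rose by 0.74 (SE 0.177, adjusted p 0.0158) without overlap. *C1qb* rose by 0.90 (SE 0.284, adjusted p 0.0578), and its groups overlapped because HFD 4, at 8.88 CPM, lay below the highest Chow mouse at 11.5 CPM.

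*Lyz2*, the macrophage lysozyme, rose by 1.08 (SE 0.228, adjusted p 0.00824), from 10.7 to 14.6 CPM in Chow to 17.4 to 36.4 CPM in HFD. It shares 32.8% of its 31-base words with *Lyz1*, so the reads of the pair could be split differently. *Mpeg1*, a pore-forming protein of phagosomes, rose by 0.82 (SE 0.215, adjusted p 0.0250), from 23.7 to 38.3 CPM to 50.0 to 58.4 CPM. *Aif1*, an actin-binding protein of macrophages, gave 0.64 (SE 0.358, adjusted p 0.271) and the chemokine gene *Ccl6* gave 0.68 (SE 0.362, adjusted p 0.25), neither of them called. *Cd14*, the lipopolysaccharide co-receptor, and *Ccl24*, a chemokine for eosinophils, did not pass the filter. *Cd14* was at 0.609 to 2.46 CPM in Chow and at 0.606 to 2.76 CPM in HFD, and *Ccl24* at 0.205 to 2.35 CPM and at 1.01 to 1.38 CPM, so both overlapped.

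All 7 myeloid and pan-leukocyte genes were called higher on HFD. *Cybb*, the catalytic subunit of the phagocyte NADPH oxidase, was at 1.03, 1.83, 3.04 and 4.97 CPM in Chow and at 7.06, 10.6, 9.50 and 7.67 CPM in HFD, a log2 change of 1.85 (SE 0.342, adjusted p 0.00402). Chow 4 lay well above Chow 1, but below all 4 HFD mice. *Cd53*, a tetraspanin of leukocytes, rose by 1.66 (SE 0.341, adjusted p 0.00705), from 0.609 to 1.3 CPM and 3 to 6 counts in Chow to 2.45 to 4.64 CPM and 17 to 24 counts in HFD. *Itgb2*, the beta chain of the leukocyte integrins, rose by 1.28 (SE 0.376, adjusted p 0.0421), with HFD 1 at 2.59 CPM below Chow 4 at 3.31 CPM. The signalling adaptors *Tyrobp* (0.86, SE 0.388, adjusted p 0.171) and *Fcer1g* (0.93, SE 0.264, adjusted p 0.0358) carry the signals of TREM2 and of Fc receptors, and both groups of libraries were separate. The call of *Tyrobp* was lost without any of the 4 Chow libraries and without HFD 1 or 2. *Laptm5*, a lysosomal membrane protein of blood cells, rose by 0.90 (SE 0.227, adjusted p 0.0202). *Ptprc*, which encodes the pan-leukocyte antigen CD45, rose by 0.80 (SE 0.276, adjusted p 0.0802), and in both of these genes HFD 4 overlapped with Chow.

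**Figure D2:**
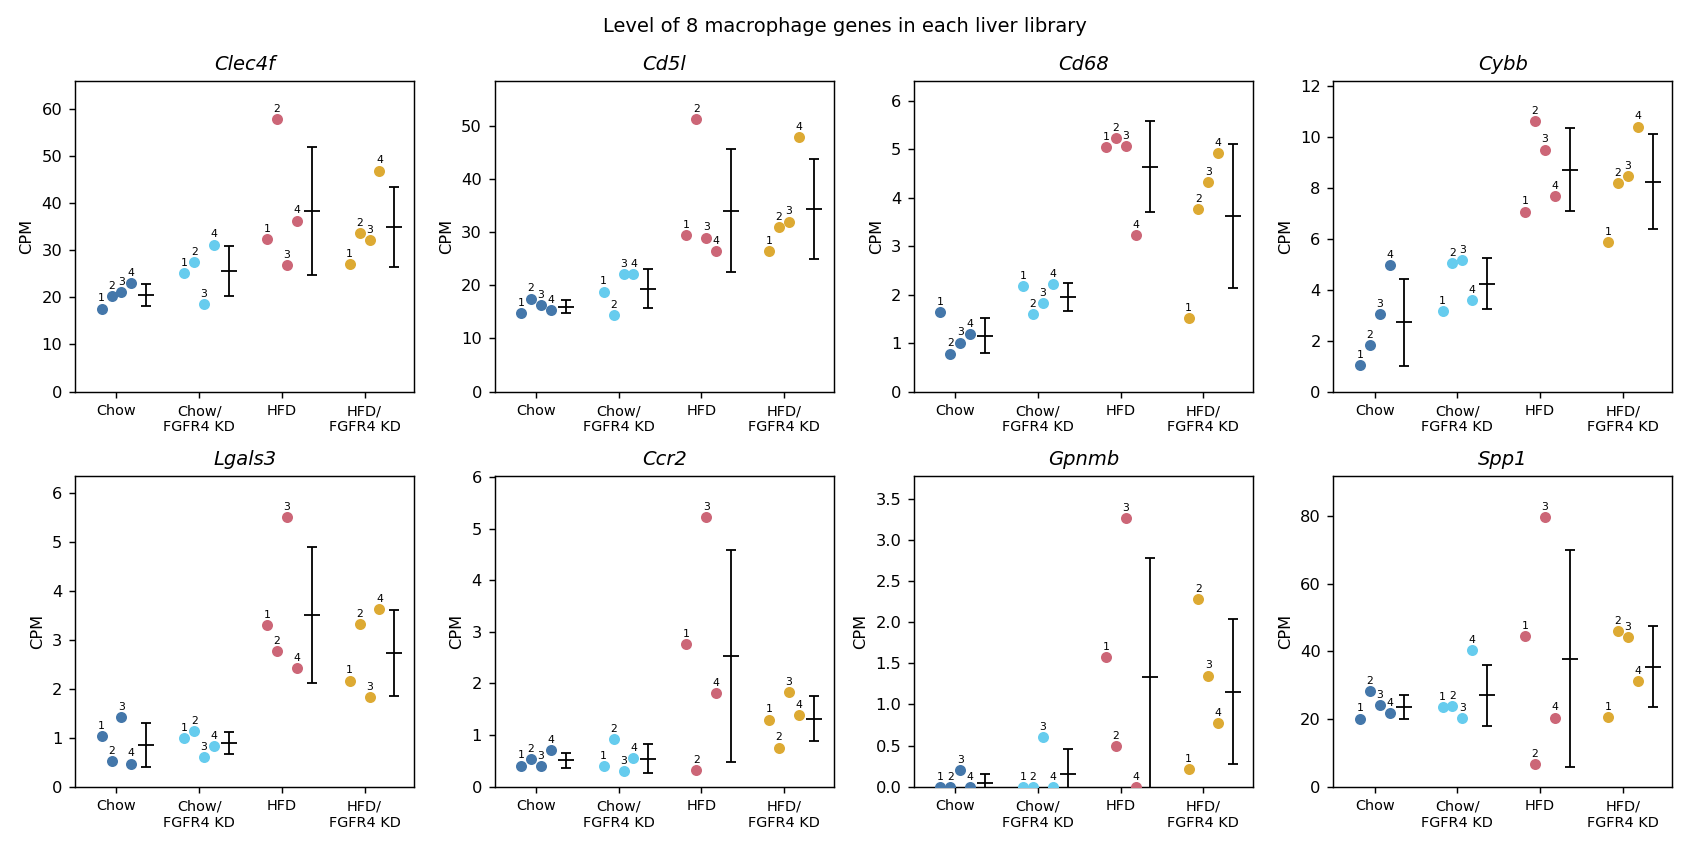
CPM of 8 members in each of the 16 libraries; points are mice with their label number, bars the mean ± SD of the 4 mice of a group. *Clec4f*, *Cd5l*, *Cd68*, *Cybb* and *Lgals3* are higher in all HFD mice than in all Chow mice, whereas *Ccr2*, *Gpnmb* and *Spp1* range widely within HFD, with HFD 3 the highest.

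The markers of recruited monocytes and dendritic cells were low throughout and uneven within HFD. *Ccr2*, the receptor for CCL2 on inflammatory monocytes, had 2, 2, 2 and 3 counts in Chow and 19.2, 2, 34.1 and 9 estimated counts in HFD 1 to 4, which were worth 2.76, 0.327, 5.22 and 1.82 CPM. The other HFD mice lay above the Chow range of 0.406 to 0.710 CPM. HFD 2 had the same 2 counts as Chow 1, 2 and 3, under the floor of 3 counts, and cannot be told apart from Chow. *Cx3cr1*, the fractalkine receptor of monocytes, was at 2.04 and 2.02 CPM in HFD 1 and HFD 3 but at 0.351 and 0.202 CPM in HFD 2 and HFD 4, against 0.00 to 0.522 CPM in Chow. The integrin chains *Itgam* (CD11b) and *Itgax* (CD11c) had at most 8 and 12 counts in any library. *Itgax* was at 1.15, 0.00, 1.84 and 0.606 CPM in HFD 1 to 4 and at 0.00 to 0.406 CPM in Chow. *Itgam* shares 68.3% of its 31-base words with other genes, mostly Gm49368, and is uncertain.

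Lipid-associated markers divided into *Spp1* and *Cd9*, which were abundant and not called, and 3 scarce genes. *Lgals3*, which encodes galectin-3 and is made by activated macrophages, was at 1.03, 0.522, 1.42 and 0.473 CPM in Chow and at 3.31, 2.78, 5.52 and 2.42 CPM in HFD. It had 2 to 7 counts in Chow and 12 to 36 in HFD, and the groups did not overlap. *Gpnmb*, a lysosomal glycoprotein of lipid-laden macrophages, had 0, 0, 1 and 0 counts in Chow and 11, 3, 21.3 and 0 estimated counts in HFD. HFD 3 and HFD 1 therefore held nearly all of its signal, and HFD 4 was at 0. *Trem2*, a lipid receptor, reached at most 6 counts in any library and was at 0.216, 0.0817, 0.920 and 0.606 CPM in HFD 1 to 4.

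*Spp1* encodes osteopontin. Its level was 20.1, 28.2, 24.1 and 21.8 CPM in Chow and 44.5, 6.70, 79.7 and 20.4 CPM in HFD, so that HFD held both the lowest and the highest mouse of these groups. The log2 change was 0.22 (SE 0.545, adjusted p 0.838), and without HFD 2 it was 0.87 and called (adjusted p 0.151). The bile duct markers without *Spp1* summed to 19.3, 8.61, 32 and 16.1 CPM in Chow 1 to 4. In HFD 1 to 4 they summed to 12.4, 8.01, 14.1 and 6.27 CPM, and their part in the *Spp1* values was not tested. *Cd9* gave -0.10 (SE 0.329, adjusted p 0.873), with 10.2 to 16.2 CPM in Chow and 7.03 to 20 CPM in HFD. *Spp1* shares 14.3% and *Cd9* 20.1% of its 31-base words with other genes. Without *Spp1* and *Cd9*, the lipid-associated markers summed to 0.652 to 1.62 CPM in Chow and 3.03 to 9.7 CPM in HFD.

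A fit without the filter on low counts gave the 9 scarce members a test. With limma-voom over 24944 genes, *Lgals3* was called higher on HFD (log2 change 1.92, adjusted p 0.0114), as were *Ccr2* (1.65, adjusted p 0.194), *Cx3cr1* (adjusted p 0.141) and *Gpnmb* (adjusted p 0.110). *Cd14*, *Ccl24*, *Itgam*, *Itgax* and *Trem2* were not called. In all, 24 of 35 members were then called higher, against 8.38% of all genes in that fit. For *Cx3cr1* and *Gpnmb* the Chow group held only 3 and 1 counts in total, so no fold change is given.

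**Figure D3:**
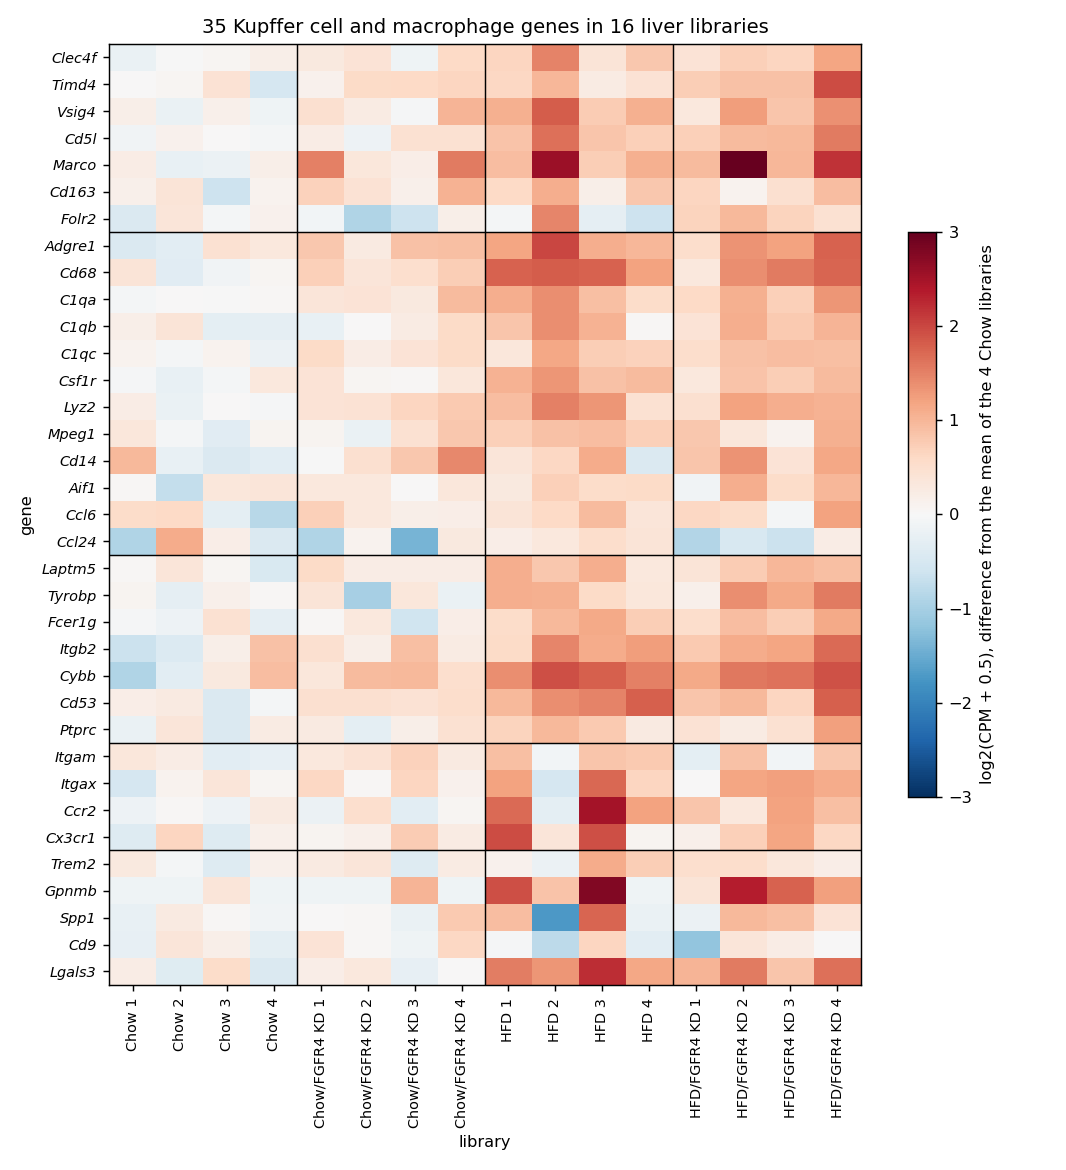
Level of each of the 35 members in each library, as log2(CPM + 0.5) minus the mean over the 4 Chow libraries; rows are genes grouped by role, columns libraries grouped by diet and treatment, and the colour scale ends at 3 in either direction. Most rows are red in all 8 HFD-fed mice, and the *Ccr2*, *Cx3cr1*, *Gpnmb* and *Spp1* rows are strongly red in HFD 3, red in HFD 1 and paler or blue in HFD 2.

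Within the HFD group the mice differed in which macrophage genes were high. HFD 2 was the highest of its group in 18 of 35 members, among them 7 of 7 resident Kupffer markers and 8 of 12 macrophage genes. HFD 3 was the highest in 12 members and held the highest values of *Ccr2*, *Trem2*, *Gpnmb*, *Spp1*, *Cd9* and *Lgals3*. The resident Kupffer markers made up 35.5% of the summed CPM of all members in HFD 2 and 17.6% in HFD 3, compared with 23.6% to 26.4% in Chow. These shares also follow *Spp1*, which is counted among all members and was at 6.7 CPM in HFD 2 and 79.7 CPM in HFD 3. No test was made on how the HFD mice divided, since mice were compared only by their own values. The HFD mice also differed beyond the members. Over 7405 genes, chi-square divided by its degrees of freedom was 11.4 between HFD 1 and HFD 3 and 11.7 between HFD 2 and HFD 4. For the remaining pairs of HFD mice it was 34.7 to 58.9.

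The diet comparison was repeated in mice that received the siRNA, HFD/FGFR4 KD against Chow/FGFR4 KD, which shares no library with the comparison above. Here 9 of 26 members were called higher and 0 lower, where 10.1% of all genes tested were called higher. None of these members passed an adjusted p under 0.05, where 1.75% of all genes did so with a higher level, 24 of 26 log2 changes were above 0, against 48.8% of all genes, and the median log2 change was 0.51, against -0.01 over all genes. With library totals the calls over all genes changed from 1148 higher and 1145 lower to 1888 and 391, the median of all genes was 0.14, and 16 members were called higher with a median of 0.62, against 16.7% of all genes. In 6 members the groups did not overlap, against 5.93% of all genes. The 9 genes were *Cd5l*, *Folr2*, *C1qb*, *C1qc*, *Csf1r*, *Tyrobp*, *Fcer1g*, *Itgb2* and *Cybb*. Of these, 8 were also called in the saline mice, which is 88.9% of the 9 and 40% of the 20, and *Folr2* was called only under KD. Since 20 of the 26 tested members were called in the saline mice, a large overlap was likely beforehand. When each of the 8 libraries was left out in turn, the call was lost in 7 fits for *C1qc*, 6 for *Itgb2*, 5 for *C1qb*, 2 for *Folr2* and 1 for *Csf1r*, and it was kept in all 8 for *Cd5l*, *Cybb*, *Fcer1g* and *Tyrobp*.

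*Cd5l* was at 18.8, 14.4, 22.1 and 22.1 CPM in Chow/FGFR4 KD and at 26.4, 31, 32 and 47.9 CPM in HFD/FGFR4 KD, a log2 change of 0.81 (SE 0.224, adjusted p 0.0599). It was the member with the smallest p here, and its groups did not overlap. *Cybb* rose by 0.95 (SE 0.305, adjusted p 0.0978), from 3.17, 5.03, 5.15 and 3.58 CPM to 5.85, 8.19, 8.47 and 10.4 CPM. *Tyrobp* rose by 1.31 (SE 0.412, adjusted p 0.0917), although HFD/FGFR4 KD 1 at 2.60 CPM lay within the chow range of 0.914 to 3.17 CPM. *Folr2* rose by 1.21 (SE 0.456, adjusted p 0.150), from 1.98, 0.914, 1.21 and 2.48 CPM to 3.69, 4.65, 3.65 and 3.11 CPM, with the call lost without Chow/FGFR4 KD 2 or HFD/FGFR4 KD 2. Among the genes left out by the filter, *Lgals3* was separate between these groups too, with 0.605 to 1.14 CPM in Chow/FGFR4 KD and 1.83 to 3.63 CPM in HFD/FGFR4 KD.

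The count varied with single mice. HFD/FGFR4 KD 1 was the lowest of its group in 25 of 35 members and the highest in 0, and without it 18 members were called higher, against 11.3% of all genes. The count was 5 without Chow/FGFR4 KD 2, HFD/FGFR4 KD 2 or HFD/FGFR4 KD 4, where 7.96%, 6.84% and 5.34% of all genes were called higher. HFD/FGFR4 KD 1 also stood apart over all genes, since chi-square divided by its degrees of freedom was 48 to 72.6 between it and the other mice of its group and 7.59 to 16.6 among those 3 mice. It had 22.31% of its counts on Gm42418, where the other 3 mice had 13.72% to 16.19%. The part of this share in the members' values was not tested in this library. With Gm42418 and *Lars2* left out before scaling, 28 members passed the filter and 10 were called higher, against 10.2% of all genes. *Cd68* was at 1.52 CPM in HFD/FGFR4 KD 1 and at 3.76, 4.32 and 4.92 CPM in the other 3 mice, against 1.60 to 2.21 CPM in Chow/FGFR4 KD. Its log2 change was 0.74 (SE 0.359, adjusted p 0.257) with all mice, and without HFD/FGFR4 KD 1 it was 1.09 and called (adjusted p 0.0305).

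**Figure D4:**
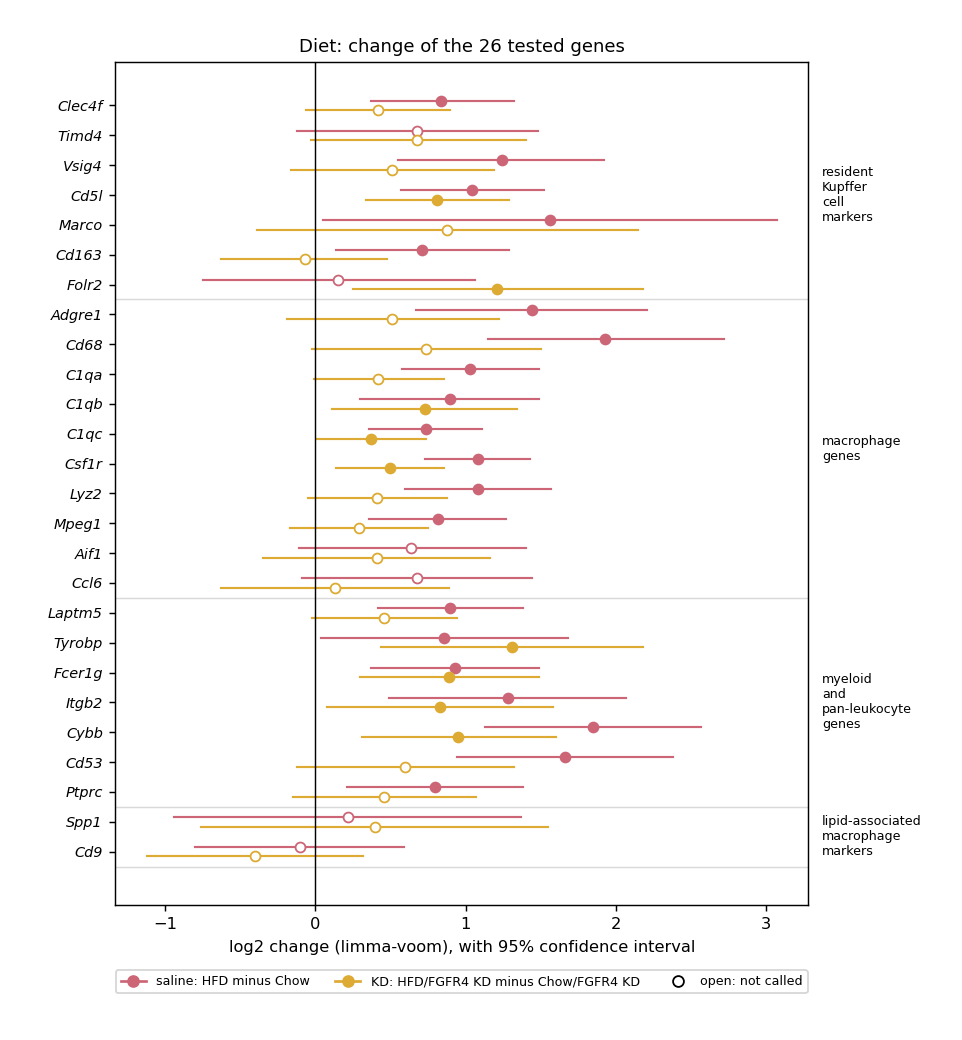
Log2 change between HFD and chow of the 26 tested members, in saline-treated mice (HFD minus Chow) and in KD mice (HFD/FGFR4 KD minus Chow/FGFR4 KD); lines are 95% confidence intervals from limma-voom, and filled points are called genes. In saline mice 20 points are filled and in KD mice 9, but the intervals of the same gene overlap for all members shown.

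Knockdown on HFD was compared next, HFD/FGFR4 KD against HFD, which uses the same HFD libraries as the diet comparison in saline mice. No member was called by limma-voom, edgeR or DESeq2, against 3.14% of all genes called with limma-voom, and 1 of 26 had an unadjusted p under 0.05. That gene was *Csf1r*, at 23.2, 28.4, 20.7 and 21.8 CPM in HFD and at 13.7, 20.4, 18.6 and 21.8 CPM in HFD/FGFR4 KD, a log2 change of -0.36 (SE 0.144, adjusted p 0.368). The groups overlapped, and HFD/FGFR4 KD 1 was the lowest mouse. In no tested member were the groups separate, against 6.49% of all genes, and 9 of 26 log2 changes were above 0, against 50.7%. The median log2 change of the members was -0.08, between -0.46 for *Cd68* and 0.67 for *Folr2*. This tally turned with single libraries and weights, to 18 of 26 above 0 and a median of 0.06 without HFD/FGFR4 KD 1, to 16 and 0.03 without HFD 2, and to 15 and 0.03 with library quality weights. The intervals limit the changes that these libraries leave room for. For *Clec4f* the 95% interval ran from -0.54 to 0.33, for *Cd5l* from -0.40 to 0.43 and for *C1qa* from -0.48 to 0.28, whereas for *Marco* it ran from -0.58 to 1.52. Without HFD 2, *Folr2* was called higher with KD (1.16, adjusted p 0.108), where 2.45% of all genes were. Over all genes 170 were called higher and 186 lower with KD on HFD, and 38 and 76 with library totals.

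A few genes of the adipocyte list differed along with KD on HFD. The sum of the list was 45.8 to 116 CPM in HFD and 14.2 to 43.4 CPM in HFD/FGFR4 KD without overlap. Of 3 tested, 2 were called lower, *Cfd* (-1.57, adjusted p 0.228) and *Cidec* (-2.29, adjusted p 0.185), where 1.64% of all genes were called lower. The sum rests on *Cfd*, *Cidec* and *Fabp4*, since *Lep* was at 0 and *Adipoq*, *Plin1* and *Retn* had 0 to 2 counts in every library of both groups. Their part in the members' values was not tested.

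The recruited and lipid-associated markers gave no separation between these groups either. *Ccr2* was at 1.3, 0.757, 1.83 and 1.38 CPM in HFD/FGFR4 KD, inside the wide range of HFD. *Spp1* was at 20.6, 46.0, 44.3 and 31.1 CPM and *Lgals3* at 2.17, 3.32, 1.83 and 3.63 CPM, and both overlapped with HFD. *Gpnmb* was detected in all 4 HFD/FGFR4 KD mice, at 0.217, 2.28, 1.35 and 0.777 CPM, the lowest of which was 1 count.

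On chow, KD went with slightly higher values of most members, without a call. In Chow/FGFR4 KD against Chow, 0 of 26 members were called by limma-voom, edgeR or DESeq2, and 0.00883% of all genes were called, namely *Fgfr4*. The log2 change was above 0 in 24 of 26 members, against 50.9% of all genes, with a median of 0.41. An unadjusted p under 0.05 was reached by 4 members, *Cd163*, *C1qa*, *C1qc* and *Lyz2*, each with an adjusted p of 0.976. *C1qa* was at 11.3, 11.7, 10.9 and 17.4 CPM in Chow/FGFR4 KD, all above the Chow mice at 8.41 to 9.00 CPM, a log2 change of 0.51 (SE 0.239). *Lyz2* was at 16.6, 16.9, 19.7 and 21.8 CPM, above the highest Chow mouse at 14.6 CPM (0.55, SE 0.249). *C1qa*, *C1qc*, *Lyz2* and *Cd53* were the 4 members whose groups did not overlap, compared with 1.33% of all genes higher without overlap.

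Chow/FGFR4 KD 4 was the highest of its group in 20 of 35 members, and its summed members came to 317 CPM, where the other 3 mice had 217 to 244 CPM. The same library had 203 CPM over 22 genes of monocyte recruitment and cytokines, where its group median was 72.6 CPM, and 6.19 CPM over the neutrophil markers, the highest of its group. Much of the sum of 203 CPM lay in *Icam1* and *Tlr2*. *Icam1* had 299 counts (40 to 47.2 in the other mice of the group) and *Tlr2* 147 counts (1 to 9), whereas *Ccl2* had 17 counts and *Il6* 0. Without Chow/FGFR4 KD 4, 0 members had an unadjusted p under 0.05, 21 of 26 log2 changes were above 0 and the median was 0.34. Since many members were highest in the same mouse, their signs are not separate observations. The part of this library in the members' values was not tested further.

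The difference between the KD effects on HFD and on chow, which is also the difference between the diet effects with and without KD, was tested directly. No member was called by limma-voom, edgeR or DESeq2, where limma-voom called 0.0353% of all genes, and 4 members had an unadjusted p under 0.05. These were *Cd68* (-1.19, SE 0.517, adjusted p 0.700), *Csf1r* (-0.58, SE 0.237, adjusted p 0.693), *Lyz2* (-0.67, SE 0.317, adjusted p 0.730) and *Cd53* (-1.07, SE 0.482, adjusted p 0.717). The difference was above 0 in 4 of 26 members, against 49.6% of all genes, with a median of -0.45. The diet calls were more numerous in saline mice than in KD mice, but the difference itself was called for no member.

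**Figure D5:**
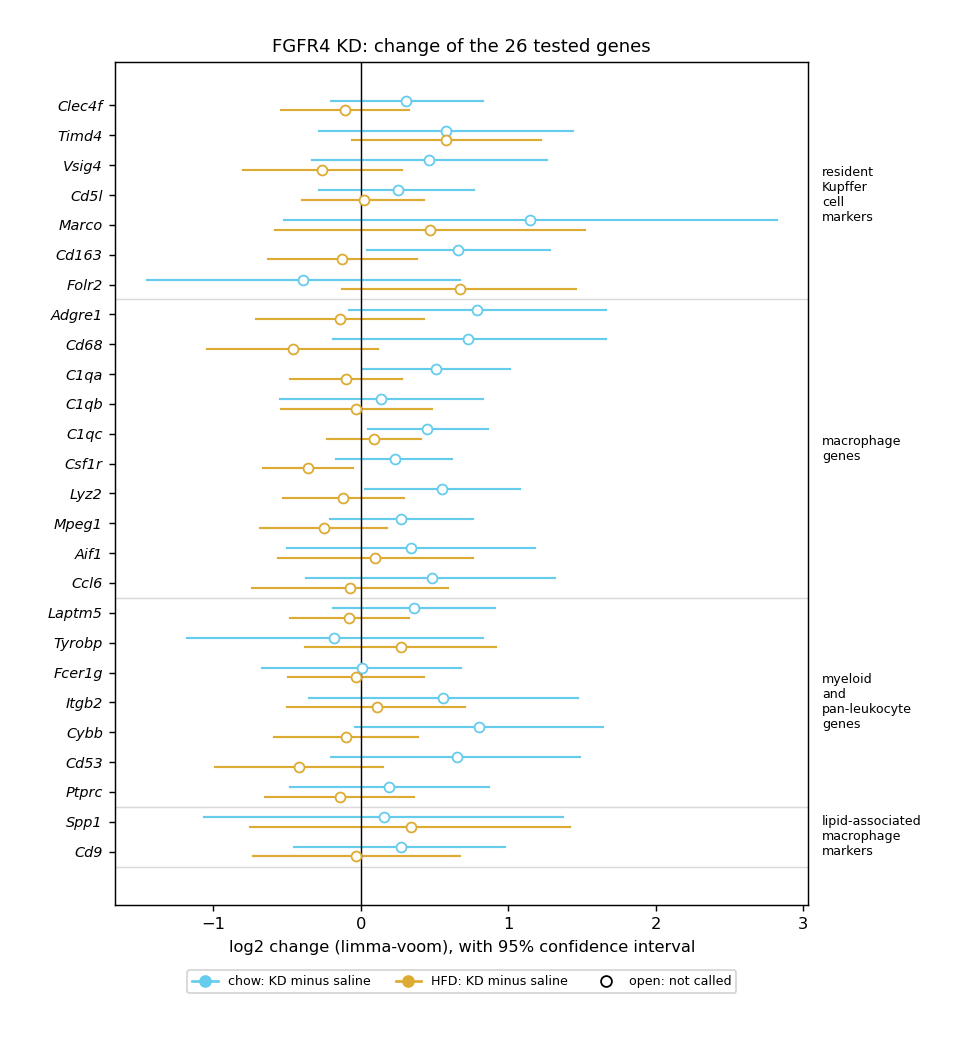
Log2 change with FGFR4 KD of the 26 tested members, on chow (Chow/FGFR4 KD minus Chow) and on HFD (HFD/FGFR4 KD minus HFD); lines are 95% confidence intervals from limma-voom, and all points are open because no member was called. On chow 24 of 26 points lie above 0, and on HFD the points lie on both sides of 0.

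Other genes of Kupffer cells, taken as a list of regulators and receptors, moved less evenly on HFD in saline mice. Of 20 tested, 9 were called higher and 1 lower, where 26% of all genes were called in either direction, and the median log2 change was 0.41. *Fcgr3*, a low-affinity Fc receptor, rose by 1.41 (SE 0.295, adjusted p 0.00771), *Axl*, a receptor for the clearance of dead cells, by 1.2 (SE 0.257, adjusted p 0.00877) and *Sdc3*, a syndecan, by 0.82 (SE 0.189, adjusted p 0.0131). The gene called lower was *C6*, a terminal complement component (-1.42, SE 0.322, adjusted p 0.0119), which hepatocytes also express. Under KD, 5 of the 20 were called higher and 1 lower between the diets, where 20.2% of all genes were called, and with KD on either diet none was called.

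Of 15 lysosomal and lipid-handling genes of macrophages, 7 were called higher and 1 lower on HFD in saline mice, against 13.3% of all genes called higher and 26% in either direction. *Cd36*, the fatty acid and oxidised-LDL receptor, rose by 2.46 (SE 0.480, adjusted p 0.00532), *Apoe* by 0.41 (SE 0.0931, adjusted p 0.0126) and *Abcg1*, a cholesterol exporter, by 1.65 (SE 0.430, adjusted p 0.0233). *Fabp5*, a fatty acid binding protein, fell by 1.65 on the log2 scale (SE 0.5, adjusted p 0.0474). Many of these genes are also expressed in hepatocytes, so they do not mark macrophages in whole liver. With KD on HFD, *Ctsl*, a lysosomal protease, rose by 0.35 (SE 0.0793, adjusted p 0.0807) and was the only gene of this list called in that comparison.

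Genes of monocyte recruitment were mostly too low to test, with 7 of 22 passing the filter. Of these 7, 3 were called higher and 1 lower in HFD against Chow, where 13.3% of all genes were called higher and 12.7% lower. On HFD in saline mice *Vcam1*, an adhesion molecule, rose by 0.94 (SE 0.289, adjusted p 0.0512) and *Cxcl10*, an interferon-induced chemokine, by 1.63 (SE 0.743, adjusted p 0.177). *Cxcl10* had 12, 0, 11 and 9 counts in Chow 1 to 4 and 19, 20, 31 and 19 in HFD 1 to 4. Its mean was 1.71 CPM in Chow and 3.65 CPM in HFD, and the 0 in Chow 2 weighs on the log2 change. The chemokine gene *Ccl9* fell by 0.92 (SE 0.195, adjusted p 0.00861). The summed level of the 22 genes was 54.8 to 78.5 CPM in Chow and 48.9 to 73.4 CPM in HFD, so it overlapped. *Ccl9* was the largest part of this sum, with a mean of 34.3 CPM in Chow and 18.5 CPM in HFD. The sum therefore does not describe the genes called higher. *Ccl3*, *Ccl4*, *Il6* and *Chil3* were at 0 in all Chow libraries.

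Some marker lists of other liver cells held more calls on HFD than the 13.3% of all genes called higher, and others did not move as a list. Of 10 stellate cell markers 5 were called higher and 0 lower in HFD against Chow, and their sum was 160 to 243 CPM in Chow and 251 to 370 CPM in HFD. Of 10 sinusoidal endothelial markers 3 were called higher, but their median log2 change was 0.01 with 5 of 10 above 0, and the sums of 167 to 223 CPM and 188 to 212 CPM overlapped. Of 2 tested bile duct markers 0 were called, but 1 of the 2 was *Spp1*, which is itself a member. Of 7 adipocyte markers 3 passed the filter and all 3 were called higher, with sums of 4.97 to 29.2 CPM and 45.8 to 116 CPM, but these 3, *Cfd*, *Fabp4* and *Cidec*, made up nearly all of the sum. *Lep* was at 0 in both groups, *Plin1* was at 0 in HFD, and *Adipoq* and *Retn* had at most 1 count in any HFD library. Of 5 erythroid genes 4 were called higher and 1 lower, with sums of 273 to 525 CPM in Chow and 512 to 932 CPM in HFD.

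Other leukocytes were scarce. Of 12 T, NK and B cell markers only *Ighm* passed the filter and was called higher (1.45, SE 0.502, adjusted p 0.0797), and the sum was 1.83 to 8.92 CPM in Chow and 6.54 to 13.1 CPM in HFD. No neutrophil marker passed the filter, with sums of 0.812 to 4.52 CPM and 2.73 to 3.37 CPM, and *Mpo* was at 0 in both groups. Of 6 dendritic cell markers 2 were tested and 0 called. Of 10 hepatocyte markers 0 were called higher and 5 lower, where 12.7% of all genes were called lower. *Tat* (-1.43, SE 0.306, adjusted p 0.00885) and *Cps1* (-0.88, SE 0.208, adjusted p 0.0148) were among those called lower. The sum of the 10 markers stayed at 71482 to 77230 CPM in Chow and 66833 to 76984 CPM in HFD. The part of these cell types in the members' changes was not tested.

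The members were examined for short words in the 250 bases before their transcription start, taken from RefSeq (GRCm38.p6), in which 28 of the 35 genes had an entry with 31 starts. These windows include members that were not called on HFD or not tested, such as *Timd4*, *Spp1* and *Trem2*, while *Csf1r*, *Adgre1*, *C1qa*, *Tyrobp* and *Itgb2*, which were called, had no window. PU.1, the transcription factor encoded by *Spi1*, is required for macrophages and binds sequences with the core GAGGAA. This core, or its reverse complement TTCCTC, was present in 41.9% of the 31 member windows and in 23.3% of 32851 windows of all genes in the table. The longer word GAGGAAGT, which contains the core, or its reverse complement was present in 6.45% of member windows and in 2.44% of all windows. The word CACGTG, the E-box of lysosomal gene regulators, was in 0 member windows and in 6.02% of all windows. *Spi1* itself, named here for its link to this word and outside the rule for named genes, did not pass the filter, at 0.609 to 1.42 CPM in Chow and 1.21 to 3.27 CPM in HFD. A match is a description of letters and not of a bound site.

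Of the members called on HFD whose window held the core and lay outside the annotated gene, a pair of Kupffer markers, a complement gene and a leukocyte gene are shown. *Vsig4* (chrX:96293439-96293688, minus strand) has the core at 155 and 53 bases before the start, *Cd5l* (chr3:87357631-87357880, plus strand) has the reverse complement at 66 bases, *C1qb* (chr4:136886201-136886450, minus strand) has the core at 30 bases and *Cd53* (chr3:106790150-106790399, minus strand) has it at 39 bases. Sequences are written 5′ to 3′ on the strand of the gene, and capitals mark the word.
Vsig4: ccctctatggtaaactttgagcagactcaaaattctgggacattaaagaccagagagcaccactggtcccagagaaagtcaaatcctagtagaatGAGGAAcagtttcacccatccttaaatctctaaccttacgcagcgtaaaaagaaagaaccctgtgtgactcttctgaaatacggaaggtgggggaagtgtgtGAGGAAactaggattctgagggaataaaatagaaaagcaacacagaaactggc
Cd5l: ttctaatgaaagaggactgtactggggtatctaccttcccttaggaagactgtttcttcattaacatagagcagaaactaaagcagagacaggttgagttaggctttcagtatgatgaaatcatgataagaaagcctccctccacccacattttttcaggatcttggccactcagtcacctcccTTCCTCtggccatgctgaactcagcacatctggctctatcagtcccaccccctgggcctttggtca
C1qb: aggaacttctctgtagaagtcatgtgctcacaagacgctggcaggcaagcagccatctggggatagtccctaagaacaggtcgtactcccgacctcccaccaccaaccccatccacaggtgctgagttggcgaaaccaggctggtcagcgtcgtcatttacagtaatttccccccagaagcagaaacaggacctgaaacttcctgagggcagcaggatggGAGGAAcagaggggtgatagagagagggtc
Cd53: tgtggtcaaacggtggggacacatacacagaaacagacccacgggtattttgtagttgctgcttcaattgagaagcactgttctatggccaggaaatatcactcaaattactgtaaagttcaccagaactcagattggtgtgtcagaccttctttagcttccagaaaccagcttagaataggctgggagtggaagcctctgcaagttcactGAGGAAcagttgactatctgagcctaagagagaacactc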

How the data were processed

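Liver RNA was sequenced from 16 mice, 1 library each, in 4 groups of 4. Per the labels, libraries were made with the KAPA mRNA HyperPrep kit. The submitters' processing notes name fastp and kallisto with GRCm38, and their versions are not given in the sources used here. The authors deposited expected counts per gene, estimated by kallisto and summed with tximport, of which 7.85% to 11.12% per library were not whole. Kallisto divides reads between genes that share sequence, which makes members with near-identical copies uncertain. Of the IDs in the table, 98.3% had a gene symbol.

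Counts were scaled with TMM factors (0.836 to 1.17) and fitted with limma-voom 3.58.1 in R 4.3.3 on all 16 libraries with a mean per group, so that groups shared their estimate of the spread. 5 comparisons were tested. Adjusted p-values are from limma-voom with Benjamini-Hochberg adjustment over all genes tested unless another tool is named, and all tests are two-sided. The thresholds of p under 0.05 and adjusted p under 0.25 follow the study. Levels per kilobase use the median length of protein-coding transcripts. Counts were called uncertain where many 31-base words of a gene also occur in transcripts of other genes.

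Alternatives were edgeR 4.0.16 and DESeq2 1.42.0 on rounded counts, other scalings and filters, library quality weights, a replicate block, a fit of the compared groups alone and leaving out each library. The scripts were tested on simulated data. No pair of libraries within a group agreed within sampling noise (chi-square per degree of freedom 7.59 to 72.6 over 7405 genes). Depth of 3445949 to 5976449 counts left scarce members with few counts.

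The members and all gene lists were chosen with earlier results of these data known. All members were to be named, and from each other list at most 4 called genes per comparison with the smallest p. Columns of all 16 libraries were used. The result of 1 gene outside the members is not reported here.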

Additional observations from a re-analysis of the deposited data

Results flagged for a closer look

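In each group of 4 mice the highest and the lowest value of every member were compared with the others by Dixon's ratio at its 95% critical value. Of 140 sets of values 15 stood apart, where chance gives about 1 in 20, or 7. HFD 2 held 4 of them, and HFD/FGFR4 KD 1, HFD/FGFR4 KD 4 and Chow/FGFR4 KD 3 held 2 each.

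HFD 2 was high for *Cd5l* (51.3 CPM, other HFD mice 26.5 to 29.4 CPM), *Marco* (8.34 CPM, others 1.99 to 2.62 CPM), *Folr2* (6.70 CPM, others 1.21 to 2.02 CPM) and *Adgre1* (11.1 CPM, others 5.25 to 6.05 CPM). All of these are genes of resident or general macrophages. HFD 4 was low for *Cd68* (3.23 CPM, others 5.04 to 5.23 CPM).

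Among HFD/FGFR4 KD mice, mouse 4 was high for *Timd4* (6.22 CPM, others 2.38 to 2.66 CPM) and *Ptprc* (7.51 CPM, others 3.54 to 4.15 CPM). Mouse 1 was low for *C1qc* (13.9 CPM, others 17.9 to 18.4 CPM) and *Itgax* (0.217 CPM, others 1.04 to 1.16 CPM).

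Among Chow/FGFR4 KD mice, mouse 4 was high for *C1qa* (17.4 CPM, others 10.9 to 11.7 CPM), mouse 1 was high for *Laptm5* (8.33 CPM, others 6.34 to 6.4 CPM) and mouse 3 was low for *Aif1* (1.21 CPM, others 1.59 to 1.65 CPM). *Gpnmb* was at 0.605 CPM in Chow/FGFR4 KD 3 and at 0.203 CPM in Chow 3, which were 2 counts and 1 count, and at 0 in the other mice of these groups. Chow 1 was high for *Cd14* (2.46 CPM, others 0.609 to 0.783 CPM).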

How the results depend on the processing

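In HFD against Chow the number of members called higher stayed between 17 and 24 of those tested under every alternative except the stricter threshold of adjusted p under 0.05, which gave 15 (4.55% of all genes called higher). The share of all genes called higher moved more among these alternatives. It ran from 8.38% without the filter, where 24 of 35 members were called, to 35% with library totals, where 23 of 26 were called. In HFD/FGFR4 KD against Chow/FGFR4 KD the count of 9 became 14 with edgeR (10.4% of all genes called higher), 16 with library totals (16.7%), 17 with library quality weights (11.6%) and 0 at adjusted p under 0.05 (1.75%), and 5 to 18 on leaving out 1 library at a time. With KD on HFD it was 0 to 1 on leaving out 1 library at a time, the call being that of *Folr2* without HFD 2. For these changes the cause was not tested, other than the stricter threshold. In KD on chow and in the difference between KD effects no alternative gave a call of a member. No value of a member changed sign while called. With the replicate block the counts were 19 in HFD against Chow (13.2% of all genes), 12 in HFD/FGFR4 KD against Chow/FGFR4 KD (10.2%) and 0 in the other comparisons. The numbers were not taken to pair the mice, since same-numbered libraries of different groups deviated together with correlations of only -0.29 to 0.24, 7 of 24 over 0.1. Depth limits the scarce members, since 3 counts are worth 0.502 to 0.871 CPM.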
